A study of Homo sapiens with 6 samples.

Results

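The genes described here are 35 androgen-regulated genes other than the kallikreins, followed in C4-2 cells after inhibition of fatty acid synthase. They were chosen by symbol, most of them genes that androgen induces in prostate cells, with MET as a gene that it represses. The deposited table lists Ensembl identifiers, which were matched to symbols, and all 35 were found among its 14456 genes. C4-2 is an epithelial-like human prostate cancer line, a castration-resistant derivative of LNCaP. Both groups were grown in RPMI medium with 10% fetal bovine serum, which was not described as depleted of steroids. One group, of 3 libraries, received IPI-9119, an inhibitor of fatty acid synthase, at 100 nM for 6 days. The other, also of 3 libraries, received 0.1% DMSO, and the labels state no separate time for it. Polyadenylated RNA was sequenced. All libraries come from 1 cell line, and no label states that replicates are independent cultures. The p-values therefore reflect only how far these libraries scatter, and that scatter may be technical.

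The androgen receptor is a nuclear receptor held by chaperones in the cytoplasm until it binds androgen. It then enters the nucleus and binds response elements in DNA, many of them in enhancers far from the gene start and opened by pioneer factors such as FOXA1. In luminal prostate cells its targets include secreted proteases, metabolic enzymes, transporters and feedback regulators, and their transcripts are used as a readout of receptor activity. The glucocorticoid receptor recognises a closely related element, so some targets, FKBP5, SGK1, TSC22D3, ZBTB16 and NDRG1 among them, can be induced by either receptor.

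The libraries held 19090749 to 23448035 recovered reads each, fewer with IPI-9119 (ratio of means 0.861). Luminal markers of prostate epithelium were present (6 of 6 in the table, summed levels of 194632 to 204223 normalised counts with DMSO and 120338 to 126103 with IPI-9119). Most of that sum was the kallikrein KLK3 (122882 ± 4093 with DMSO, 63576 ± 2314 with IPI-9119; SD, n = 3). Of the 6 markers 5 were called lower and 1 higher (limma, adjusted p under 0.05; background 31.4% and 31.3%). None of the 3 basal epithelial and 3 leukocyte markers had a row in the table. The neuroendocrine and endothelial lists had 1 of 3 markers each and the fibroblast or smooth muscle list 3 of 4 (summed levels of 80.2 to 106 with DMSO and 108 to 132 with IPI-9119). IPI-9119 replicate 1 stood apart from the other IPI-9119 libraries (chi-square per degree of freedom 7.55 and 9.76, against 2.31 between the others and 4.27 to 5.34 between DMSO libraries). It was the library farthest from the group median for 21 of the 35 genes, and the same count over all genes was not computed. No batch is named in the labels, so a batch that followed the treatment cannot be told apart from it.

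Most of these androgen-regulated genes were lower after 6 days of IPI-9119. Of the 35 genes, all of which passed the filter on low values, 25 fell, 5 rose and 5 did not pass the test (limma, adjusted p under 0.05). The background is high, since 62.8% of the 14437 genes tested were called, 31.4% lower and 31.3% higher. Against that, 71.4% of the androgen-regulated genes fell and 14.3% rose. Their median log2 fold change was -0.62, beside 0.0017 over all genes tested. Falls of at least 2-fold were found for 14 of the 35, against 9.27% of all genes, and rises of that size for 2, against 7.92% (17.2% in either direction). On the recovered reads, edgeR and DESeq2 also called 25 lower and 5 higher, over backgrounds of 31.9% and 31.0% with edgeR and 29.2% and 29.4% with DESeq2. Without IPI-9119 replicate 1 no call was lost, and TPD52 (lower) and MPHOSPH9 (higher) were gained. Every IPI-9119 library lay below every DMSO library for 26 genes and above for 5, against 33.9% and 34.0% of all genes (67.9% in either direction). The 35 genes together held 1.51% ± 0.0219 of the normalised counts with DMSO against 0.849% ± 0.0171 after IPI-9119 (SD, n = 3). Fewer cells with a transcript and less of it per cell cannot be told apart in these bulk samples.

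**Figure D1:**
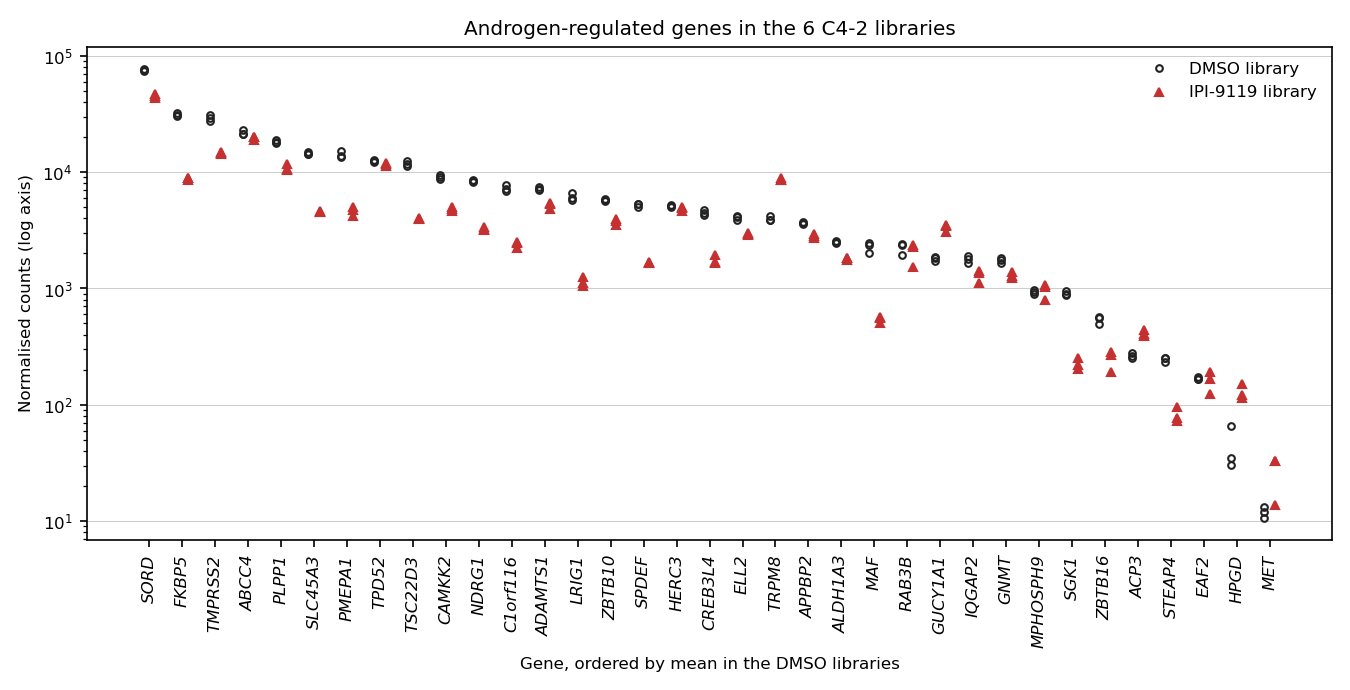
Normalised counts (log axis) of the 35 androgen-regulated genes in each of the 3 DMSO libraries (open circles) and 3 IPI-9119 libraries (triangles), ordered by mean level with DMSO. The triangles lie below the circles for 26 genes and above them for 5, TRPM8, GUCY1A1, ACP3, HPGD and MET.

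The nuclear regulators among these genes fell in 7 of 8 cases (31.4% of all genes tested were called lower), and EAF2 did not pass the test. MAF, a basic leucine zipper transcription factor (ENSG00000178573, chr16:79585843-79600714, minus strand, GRCh38, GENCODE 29), stood at 2343, 2441 and 1999 normalised counts with DMSO and at 567, 559.5 and 508 with IPI-9119. The groups lay far apart, with a log2 fold change of -2.05 (SE 0.078; limma, adjusted p = 5.2e-11). SPDEF, an ETS factor of luminal and secretory epithelium (ENSG00000124664, chr6:34537802-34556333, minus strand), stood at 5329, 5368 and 4971 with DMSO and 1698, 1649 and 1645 with IPI-9119. All IPI-9119 libraries of SPDEF were within a narrow low range, 5222 ± 219 against 1664 ± 29.6 (SD, n = 3), with a log2 fold change of -1.65 (SE 0.049; limma, adjusted p = 6.8e-12). CREB3L4, a membrane-bound transcription factor abundant in prostate, went from 4688, 4298 and 4459.9 to 1928, 1693 and 1653. Here too each IPI-9119 library was below each DMSO library (log2 fold change -1.35; limma, adjusted p = 3.3e-10).

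TSC22D3, the glucocorticoid-induced leucine zipper protein (ENSG00000157514, chrX:107713221-107777342, minus strand), was at 11651, 11301 and 12401 normalised counts with DMSO and 3933, 3938 and 4013 with IPI-9119. That is 2.97-fold lower, with a log2 fold change of -1.57 (SE 0.047; limma, adjusted p = 6.2e-12). ZBTB16, the zinc finger repressor PLZF, was less abundant and more variable, at 492, 574 and 552 against 189.8, 271 and 286. IPI-9119 replicate 1 was the lowest library for ZBTB16, and the fall was -0.95 on the log2 scale without it against -1.13 with all libraries (limma, adjusted p = 9.9e-06). ZBTB10, another zinc finger protein, fell by a smaller step, from 5764 ± 126 to 3749.8 ± 232 (SD, n = 3; log2 fold change -0.62).

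ELL2 and EAF2 encode partners in transcription elongation, ELL2 a subunit of the super elongation complex and EAF2 an ELL-associated factor. ELL2 was at 4061 ± 171 normalised counts with DMSO against 2956 ± 44.4 after IPI-9119 (SD, n = 3). The fit gave a log2 fold change of -0.46 (SE 0.048; limma, adjusted p = 1.6e-06). EAF2 did not pass the test. With DMSO it was at 174, 167 and 165 and with IPI-9119 at 191, 124 and 166, so the IPI-9119 libraries spread on both sides of the DMSO values (log2 fold change -0.10, SE 0.15; limma, adjusted p = 0.597). The sign for EAF2 turned without IPI-9119 replicate 2 (0.076).

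Among the receptors, kinases and signalling proteins 6 fell and 2 rose (background 31.4% lower and 31.3% higher). The share that rose, 25%, is near the background. LRIG1, a membrane protein that restrains ErbB receptor signalling (ENSG00000144749, chr3:66378797-66501263, minus strand), had the largest fall of the 35 genes. It went from 5941, 6659.7 and 5739 normalised counts with DMSO to 1043, 1259 and 1112 with IPI-9119, 5.37-fold lower, with a log2 fold change of -2.43 (SE 0.072; limma, adjusted p = 1.0e-11). By size of change LRIG1 was number 353 of 14437 genes. SGK1, a kinase that regulates ion transport and is induced by steroids (ENSG00000118515, chr6:134169246-134318112, minus strand), fell from 890.2, 881 and 955 to 251, 203 and 221. The groups of SGK1 were again far apart, with a log2 fold change of -2.01 (SE 0.092; limma, adjusted p = 3.2e-10).

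PMEPA1, a membrane adaptor that dampens TGF-beta and androgen receptor signalling (ENSG00000124225, chr20:57648392-57711536, minus strand), was at 13828, 15056 and 13517 normalised counts with DMSO and 4187, 5022 and 4771 with IPI-9119, with a log2 fold change of -1.60 (SE 0.064; limma, adjusted p = 1.4e-10). NDRG1, a stress- and differentiation-related protein (ENSG00000104419, chr8:133237171-133302022, minus strand), went from 8619, 8341 and 8259 to 3270.2, 3386 and 3153, with a log2 fold change of -1.36 (SE 0.046; limma, adjusted p = 1.7e-11). CAMKK2, the calcium-dependent kinase upstream of AMPK, was at 8771, 9372 and 9108 with DMSO and 4652, 4836 and 4988 with IPI-9119, a 1.88-fold fall (limma, adjusted p = 9.8e-10). For each of these 3 genes every IPI-9119 library lay below every DMSO library. The scaffold protein gene IQGAP2 fell less, from 1782 ± 128 to 1294 ± 157 (SD, n = 3; log2 fold change -0.47; limma, adjusted p = 3.2e-04).

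GUCY1A1 and MET went the other way. GUCY1A1, a subunit of the nitric oxide receptor soluble guanylate cyclase (ENSG00000164116, chr4:155666711-155732349, plus strand), rose from 1712, 1859 and 1810.2 normalised counts to 3071, 3542 and 3453, 1.87-fold, with a log2 fold change of 0.90 (SE 0.061; limma, adjusted p = 1.7e-08). MET, the receptor of hepatocyte growth factor and a gene repressed by the androgen receptor, was near the lower limit of the table. It had 12, 14 and 13 reads with DMSO against 13, 30 and 30 with IPI-9119, or 10.7, 13.2 and 11.9 against 13.7, 32.7 and 33.0 normalised counts. IPI-9119 replicate 1 was level with the DMSO libraries, and the other two were higher. MET passed the test with a log2 fold change of 0.99 (SE 0.37; limma, adjusted p = 0.0308), and lost the call without DMSO replicate 1 (adjusted p 0.0729), DMSO replicate 3 (0.0673), IPI-9119 replicate 2 (0.130) or IPI-9119 replicate 3 (0.127). Without IPI-9119 replicate 1 its log2 fold change was 1.39.

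Of the 3 proteases and phosphatases 2 fell and 1 rose (background 31.4% lower and 31.3% higher), too few genes to set against the background. TMPRSS2, a transmembrane serine protease whose promoter drives ETS factor fusions in many prostate tumours (ENSG00000184012, chr21:41464551-41531116, minus strand), was at 29093, 30928 and 27703 normalised counts with DMSO and 14242, 14956 and 14545 with IPI-9119. That is 2.01-fold lower (limma, adjusted p = 5.0e-10). ADAMTS1, a secreted metalloprotease, fell from 7234 ± 199.7 to 5192 ± 304 (SD, n = 3; log2 fold change -0.48). ACP3, prostatic acid phosphatase, a classical secretory product of the gland (ENSG00000014257, chr3:132317367-132368298, plus strand), rose from 277, 251 and 261 to 391, 405 and 439. The groups of ACP3 did not overlap, with a log2 fold change of 0.64 (SE 0.092; limma, adjusted p = 3.1e-05). After the length and GC correction described below, the log2 fold change of ACP3 was 0.42 (adjusted p 5.4e-04).

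Of the 4 channel and transporter genes 3 were lower and 1 higher (background 31.4% and 31.3%), too few genes to set against the background. SLC45A3, the prostate transporter also called prostein (ENSG00000158715, chr1:205657851-205680459, minus strand), fell from 14238, 14948 and 14424 normalised counts to 4561, 4654 and 4549.9, 3.17-fold, with a log2 fold change of -1.66 (SE 0.043; limma, adjusted p = 1.7e-12). STEAP4, a metalloreductase that takes part in iron and copper uptake, was much less abundant and went from 245 ± 10.3 to 81.9 ± 12.4 (SD, n = 3; log2 fold change -1.58, SE 0.14; limma, adjusted p = 2.3e-07). In both genes every IPI-9119 library lay below every DMSO library. ABCC4, the efflux pump MRP4, moved little, from 21393, 21445 and 23214 to 18854, 20112 and 19982, with a log2 fold change of -0.16 (SE 0.047; limma, adjusted p = 0.00788). The ABCC4 call was lost without DMSO replicate 3, the highest library (-0.13 on the log2 scale, adjusted p 0.0561).

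TRPM8, the cold- and menthol-sensitive calcium channel (ENSG00000144481, chr2:233917398-234019522, plus strand), rose. It was at 3849.7, 3858 and 4172 normalised counts with DMSO and at 8532, 8616 and 8876 with IPI-9119, 2.19-fold, with a log2 fold change of 1.13 (SE 0.047; limma, adjusted p = 1.4e-10). The replicates of each group of TRPM8 were tight (coefficient of variation 4.65% and 2.07%), and leaving out any library kept the log2 fold change between 1.11 and 1.17. TRPM8 was the most abundant of the 5 genes that rose.

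Of the 5 metabolic enzymes 4 fell and 1 rose (background 31.4% lower and 31.3% higher). SORD, sorbitol dehydrogenase, which makes fructose from sorbitol (ENSG00000140263, chr15:45023104-45077185, plus strand), was the most abundant of the 35 genes and fell from 75610.3, 73833 and 76422 normalised counts to 47038, 44722 and 43638, with a log2 fold change of -0.74 (SE 0.043; limma, adjusted p = 3.4e-09). SORD has a near-identical pseudogene copy, SORD2P, in the table (629 ± 25.8 with DMSO against 481 ± 16.4 after IPI-9119; SD, n = 3), so reads could be split between them. The pseudogene fell too, by a log2 fold change of -0.39, and its level was far below that of SORD. PLPP1, a lipid phosphate phosphatase, fell from 18787, 17728 and 18220.0 to 11708, 10419 and 10676 (log2 fold change -0.74). Smaller falls were found for ALDH1A3, which makes retinoic acid from retinal (log2 fold change -0.47), and GNMT, a methyltransferase that consumes S-adenosylmethionine (-0.45).

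HPGD, the enzyme that inactivates prostaglandins (ENSG00000164120, chr4:174490177-174523154, minus strand), had the largest rise of the 35 genes, from a low level. It had 39, 32 and 71 reads with DMSO against 144, 104 and 111 with IPI-9119, or 34.9, 30.2 and 65.2 against 152, 113 and 122 normalised counts. DMSO replicate 3 stood above the other DMSO libraries and still below each IPI-9119 library, and the fit gave a log2 fold change of 1.62 (SE 0.25; limma, adjusted p = 7.3e-05). Without that library the log2 fold change was 1.95.

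Of the chaperone, ubiquitin ligase and trafficking genes 2 of 5 fell and 3 did not pass. That share, 40% lower, is near the background of 31.4%. FKBP5, a cochaperone of HSP90 that acts in steroid receptor complexes and is among the most used readouts of androgen and glucocorticoid signalling (ENSG00000096060, chr6:35573585-35728583, minus strand), gave 31117, 32204 and 30582 normalised counts with DMSO and 8521, 8928 and 8993 with IPI-9119. That is 3.55-fold lower, with a log2 fold change of -1.83 (SE 0.043; limma, adjusted p = 9.0e-13), the smallest adjusted p of the 35 genes. APPBP2, a protein that binds the amyloid precursor protein and acts as a substrate receptor of a ubiquitin ligase, fell by a log2 fold change of -0.36 (limma, adjusted p = 1.8e-05).

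TPD52, a trafficking protein amplified in prostate cancer, was at 12735, 12444 and 12307 normalised counts with DMSO and 12026, 11676 and 11209 with IPI-9119. Its groups did not overlap, but the step was small (log2 fold change -0.10, SE 0.044) and just missed the threshold (limma, adjusted p = 0.054). It passed with TMM scaling (adjusted p 0.0497), quantile scaling (0.00863) or without IPI-9119 replicate 1 (0.00850). HERC3, a HECT-type ubiquitin ligase, had 5132, 5036 and 5267 against 4626, 5037 and 4874 and overlapping groups (log2 fold change -0.087; limma, adjusted p = 0.125). RAB3B, a GTPase of regulated secretion, had 1947, 2422 and 2371 against 1527, 2273 and 2344 (log2 fold change -0.15, SE 0.17; limma, adjusted p = 0.476). IPI-9119 replicate 1 was the lowest library for RAB3B, and without it the value was 0.046.

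The remaining pair was divided. C1orf116, a cytoplasmic protein named for its specific androgen regulation (ENSG00000182795, chr1:207018521-207032756, minus strand), fell from 6912, 7709.8 and 7109 normalised counts to 2211, 2449.8 and 2499.8, with a log2 fold change of -1.60 (SE 0.058; limma, adjusted p = 3.3e-11). MPHOSPH9, a centrosomal phosphoprotein, had 891, 927 and 973 with DMSO and 794, 1074 and 1024 with IPI-9119 and did not pass (log2 fold change 0.040, SE 0.098; limma, adjusted p = 0.738). Without IPI-9119 replicate 1, the lowest library, MPHOSPH9 was higher (0.17, adjusted p 0.0270).

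**Figure D2:**
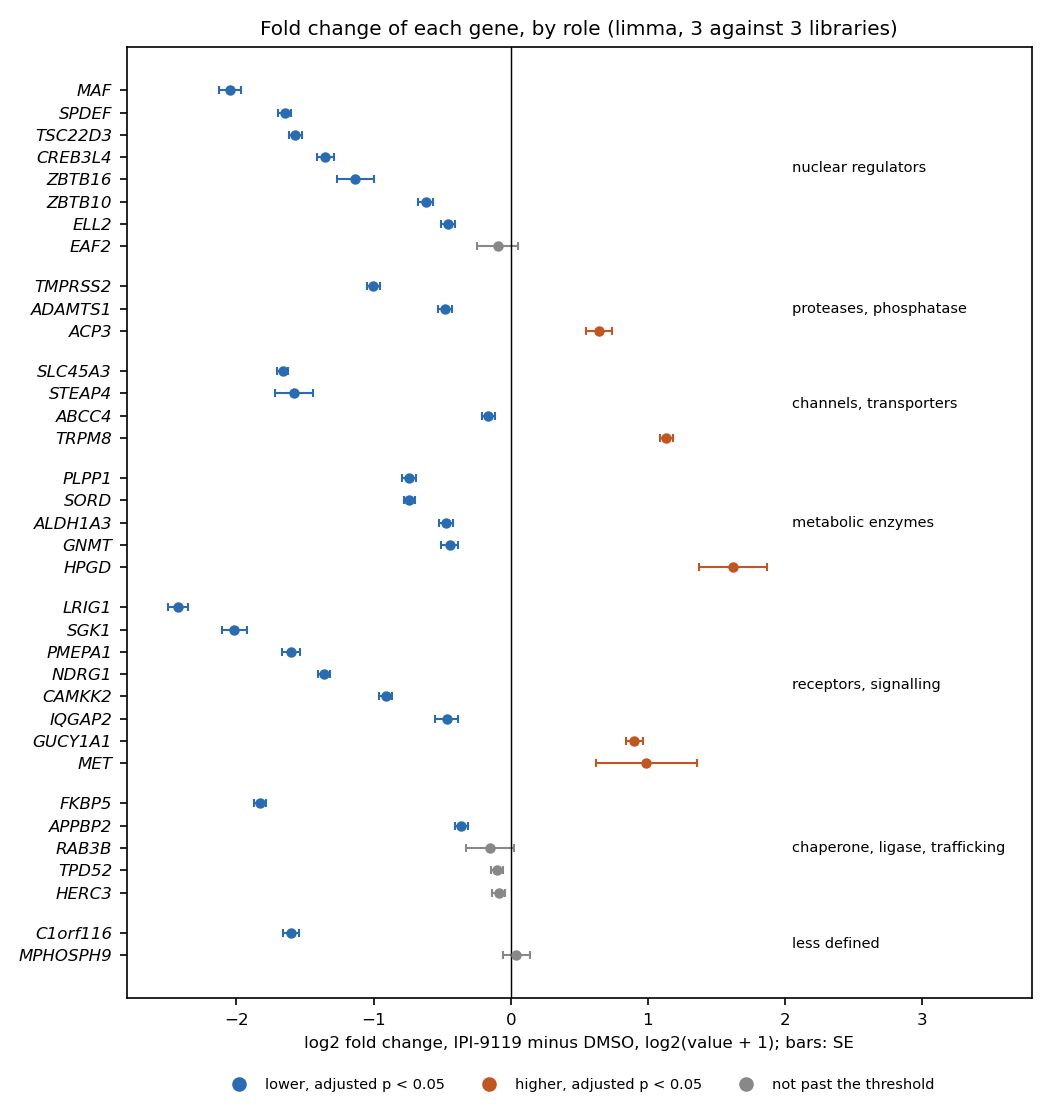
Log2 fold change (IPI-9119 minus DMSO, on log2(value + 1)) of each of the 35 genes with its standard error, grouped by role and coloured by the limma call at an adjusted p under 0.05. Values run from -2.43 for LRIG1 to 1.62 for HPGD. Of the 8 nuclear regulators 7 are called lower, against 31.4% of all genes tested.

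The 5 genes listed above as glucocorticoid targets too all fell by at least 2-fold. That list was chosen with earlier results of these data known and is not complete. Its count therefore only describes these 5 genes and cannot show that glucocorticoid targets differ from the others. Log2 fold changes of the 5 ran from -2.01 for SGK1 to -1.13 for ZBTB16, with a median of -1.57. Falls of at least 2-fold were found for 14 of the 35 genes and for 9.27% of all genes. After the length and GC correction described below, NDRG1 was at -0.95, a fall of less than 2-fold. Among 10 tested glucocorticoid-induced genes outside the 35, 4 fell, 3 rose and 3 did not pass, with a median of -0.12. Those shares, 40% lower and 30% higher, are near the background of 31.4% and 31.3%. PER1, a clock gene, was at 171 ± 29.8 normalised counts with DMSO against 31.9 ± 11.4 after IPI-9119 (SD, n = 3) and thus fell (-2.44 on the log2 scale, or -1.71 when corrected for length and GC as described below), and BIRC3, an inhibitor of apoptosis also induced by NF-kB, rose from 13.8 ± 4.40 to 421 ± 23.2 (4.88). The receptor gene NR3C1 was not analysed here, as the table held no row for it. The difference between these groups of genes was not tested.

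Genes of the machinery that acts with the androgen receptor were mostly lower. Of 16 pioneer factors, chaperones and coregulators 15 fell and 1 rose (median -0.93, background 31.4% lower). The paired acetyltransferases CREBBP (-3.91, or -3.10 after the length and GC correction described below) and EP300 (-2.71 and -2.17) had the largest falls of that list. The 1 gene that rose, the cochaperone PTGES3 (0.12), was named after its value was seen, and it was lower after the correction (-0.13). Among 21 androgen-induced genes outside the 35, the kallikreins included, 14 fell, 5 rose and 2 did not pass (median -0.37). Without the correction the melanophilin gene MLPH had the largest fall (-2.08, or -1.72 corrected, when KLK4 at -1.94 was lower). ADAM7, a sperm-maturation protease homologue, had the largest rise (2.27, or 2.01 corrected). Of 2 androgen-repressed genes tested outside the 35, CAMK2N1 fell (-0.15, or -0.30 corrected) and BCHE did not pass. The CAMK2N1 call was lost with DESeq2.

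**Figure D3:**
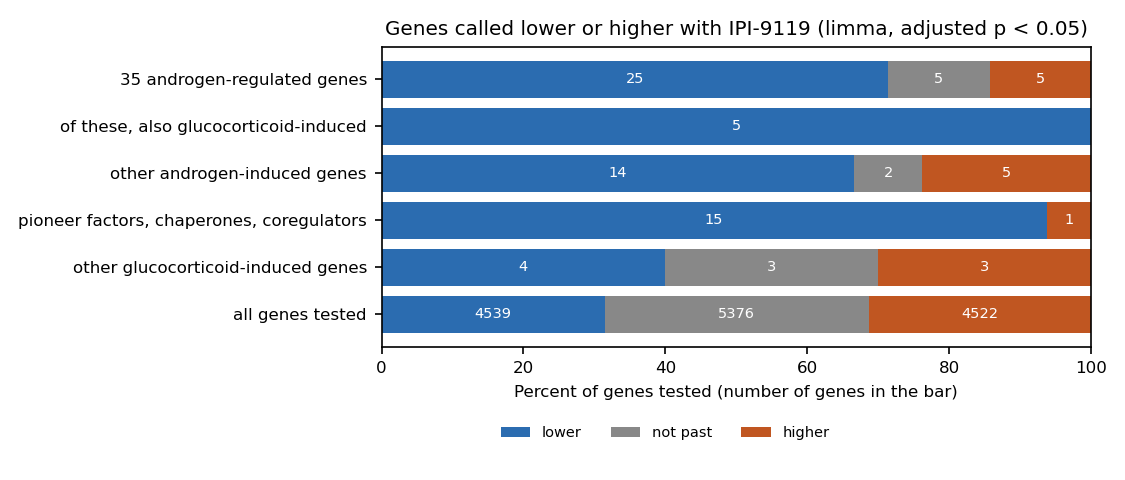
Percent of tested genes called lower, not past the threshold or higher with IPI-9119 (limma, adjusted p under 0.05), with the number of genes in each bar, for the 35 androgen-regulated genes, 4 related lists and all 14437 genes tested. The 35 genes have 25 lower and 5 higher, and all genes 4539 lower and 4522 higher. The list of also glucocorticoid-induced genes is a part of the 35, and all lists were chosen with earlier results of these data known.

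Read against length, the genes stood at very different levels with DMSO. Per kilobase of exon, SORD was highest with DMSO (12224 normalised counts per kilobase), followed by PLPP1 (9050.0), TMPRSS2 (4780.3), SLC45A3 (3927) and FKBP5 (2945). The lowest were STEAP4 (21.8), HPGD (7.85) and MET (1.70). Of the 35 genes 18 were at or above the 90th percentile of all genes tested on this scale. With IPI-9119 the order changed in places. FKBP5, at 829 per kilobase, was then below TRPM8, at 1098, although with DMSO it had been far above it (2945 against 501).

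Fold changes correlated weakly with transcript properties over all genes, and they were also read after a correction for exonic length and GC content. Across all 14386 genes with both values, Spearman's rho of the log2 fold change was -0.17 with length and -0.16 with GC percent. Across the 35 genes it was 0.047 with length and -0.54 with GC percent, as a description over genes that share the same libraries. The genes had a median exonic length of 6976 nt and a median GC content of 44.8%, against 4618 nt and 48.0% for all genes. After the correction 28 of the 35 genes were lower, 5 higher and 2 not past (background 34.1% lower and 30.7% higher), and the median was -0.63 beside -0.033 over all genes. No gene called without the correction lost its call or turned its direction. Falls of at least 2-fold were then found for 12 of the 35 genes against 14 without the correction, with NDRG1 at -0.95 and TMPRSS2 at -0.90. The share of all genes at that size was not computed after the correction. EAF2 (-0.33, adjusted p 0.045), HERC3 (-0.15, adjusted p 0.0069) and TPD52 (-0.21, adjusted p 0.00135) became lower. The largest shifts were those of NDRG1, from -1.36 to -0.95, and LRIG1, from -2.43 to -2.09. The part of transcript length and base composition in the results was not tested beyond this.

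**Figure D4:**
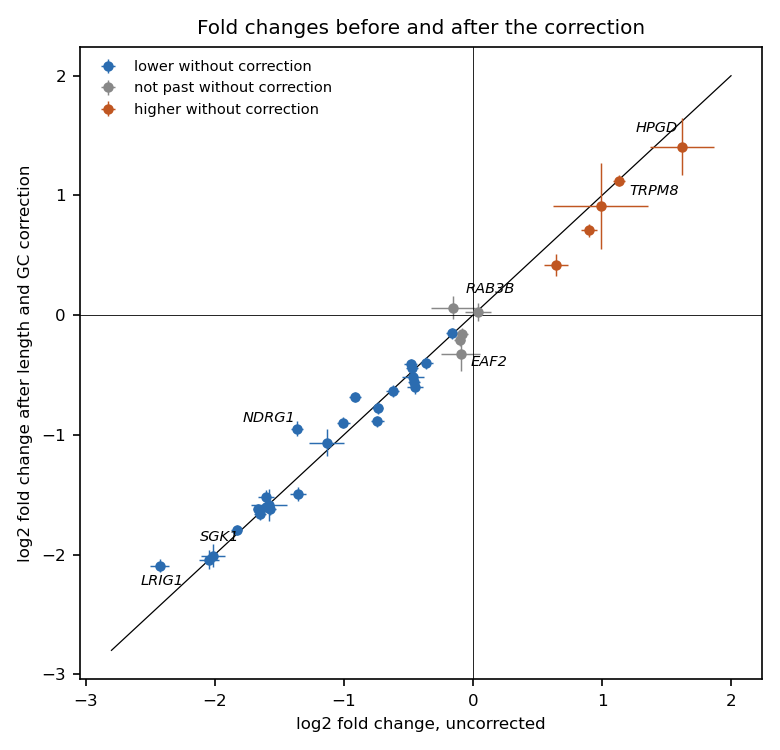
Log2 fold change of the 35 genes after a correction for exonic length and GC content (vertical axis) against the uncorrected value (horizontal axis), with standard errors and the line of equality. Points lie near the line, with shifts of at most 0.41 (NDRG1), and the 5 genes that rose stay above 0.

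Of the 35 genes 16 share exonic sequence with another annotated gene, and for 9 the other gene was in the table. The strand setting of the counting was not given in the sources used here, so reads from opposite strands may not have been told apart. PLPP1 shares 23.9% of its exonic sequence with the opposite-strand gene MTREX, which did not pass the test (log2 fold change 0.039). LRIG1 shares 12.9% with SLC25A26, which rose (0.56). CREB3L4 shares 9.6% with SLC39A1 (0.58) and 3.3% with JTB (0.50), which both rose. With DMSO, JTB was at 4903 normalised counts against 4482 for CREB3L4. Some other partners fell, among them NCBP2L of TSC22D3 (1.5% shared, -1.15) and an antisense gene of ZBTB10 (5.8% shared, -1.44), both at under 80 normalised counts with DMSO. Others did not pass the test, among them PEX6 of GNMT (-0.16). NKILA, the antisense neighbour of PMEPA1, fell by less (-0.29) and was at 481 normalised counts with DMSO against 14133 ± 814 for PMEPA1. ALDH1A3 shares 27.5% of its exonic sequence with ALDH1A3-AS1, which had no row in the table. A strand setting would not separate partners on the same strand. TPD52 shares 10.7% with such a gene, at 23.9 normalised counts with DMSO against 12495 for TPD52, which did not pass the test (-0.57). PLPP1 shares 4.6% with the same-strand pseudogene RNF138P1 (15.2 with DMSO), and MPHOSPH9 shares 2.9% with a same-strand gene (69.6 with DMSO).

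The promoters were searched for the androgen receptor's binding letters, since most of the genes moved the same way. RefSeq promoter sequences (GRCh38.p14) matched 26 of the 35 genes, with 48 start sites. In the 250 bases before each start, the full palindromic site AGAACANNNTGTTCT was found at 0 of these 48 and at 1 of 35116 promoters of all genes. With a site that rare, 48 windows could not show a difference. The 48 windows had a median GC content of 61.4%, against 58.0% for all promoters, and the effect of composition on the matches was not tested. Its hexamer TGTTCT, searched on both strands and contained in the full site, was found at 3 of the 48 (6.25%) against 12.4% of all promoters. The forkhead core TGTTTAC, searched on both strands, was found at 1 of 48, in TSC22D3, against 2.98% of all promoters. The hexamers lie before 1 of 4 annotated starts of PMEPA1, 1 of 6 of TRPM8 and 1 of 3 of IQGAP2. Among these genes PMEPA1 and IQGAP2 fell and TRPM8 rose, so the hexamer was found beside genes of both directions. The stretches are shown because they are the only hexamer matches found before these starts, each 5′ to 3′ on the gene's strand with the hexamer, or its reverse complement AGAACA, in capitals.
PMEPA1, chr20:57710741-57710827, minus strand, site beginning 229 bases before the start: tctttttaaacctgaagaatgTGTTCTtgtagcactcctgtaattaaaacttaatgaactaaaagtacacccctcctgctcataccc
TRPM8, chr2:233979923-233980048, plus strand, site beginning 166 bases before the start: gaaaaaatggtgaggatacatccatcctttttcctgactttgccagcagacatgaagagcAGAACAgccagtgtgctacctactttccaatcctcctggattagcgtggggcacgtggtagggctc
IQGAP2, chr5:76547294-76547408, plus strand, site beginning 55 bases before the start: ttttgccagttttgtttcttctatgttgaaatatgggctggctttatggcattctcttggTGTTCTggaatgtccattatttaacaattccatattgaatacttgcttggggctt
A match is a description of letters and not a binding site, and elements outside these windows were not searched.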

How the data were processed

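Polyadenylated RNA from C4-2 cells was measured in 3 libraries with IPI-9119 and 3 with DMSO. The deposited table holds a signal on a normalised scale, in which every library's whole read counts had been scaled by 1 constant, as its step sizes show. GRCh38, STAR 2.5.2b, DESeq2, Subread 1.5.2, featureCounts and Trimmomatic 0.36 appear, without stated roles, per the submitters' processing notes. The sources used here give neither the annotation nor the strand setting. Read counts were recovered from the value of a single read in each library (100% of values whole within 0.01 read). They total 19090749 to 23448035 per library, and the lowest gene total was 61. Replicates differed by more than sampling noise.

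The main test was limma 3.58.1 (R 4.3.3, trend and robust moderation, two-sided) on log2(value + 1), over the 14437 genes with a mean of at least 10. The larger the constant added, the smaller the changes of genes with low counts come out. HPGD was at 1.63 with 0.5 added, 1.62 with 1 and 1.47 with 8, beside 1.56 with edgeR and 1.57 with DESeq2. Benjamini-Hochberg adjusted p-values under 0.05 over all these genes were called. Alternatives were edgeR 4.0.16 and DESeq2 1.42.0 on the recovered reads, filtering at a mean of 50 or not at all, pseudocounts of 0.5 and 8, TMM and quantile scaling, no trend and no robust moderation together, a replicate block, and leaving out each library. A further one was a length and GC correction, fitted in each library by interacting splines of 4 degrees of freedom over the 99.6% of genes with both values, alone and with the block. edgeR called 4471 genes higher and 4601 lower, and DESeq2 4238 and 4222, against 4522 and 4539 with limma. The steps were tested on simulated data. Positions, lengths and GC came from GENCODE 29, and 14409 genes of the table matched it. The 35 genes, the gene lists, the rule that every one of the 35 is reported and at most 2 genes of each other list, and the alternatives were chosen with earlier results of these data known. Some genes of the other lists are not reported here.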

Additional observations from a re-analysis of the deposited data

How the results depend on the processing

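Over all alternatives the number of the 35 genes called lower ran from 24 to 28, that called higher from 4 to 6, and their median log2 fold change from -0.68 to -0.57. edgeR and DESeq2 on the recovered reads gave the same call as limma for each of the 35 genes, and in no alternative was a gene called in the opposite direction. Values that turned sign belonged to EAF2, MPHOSPH9 and RAB3B, which did not pass the test with all libraries. On leaving out a library EAF2 ran from -0.23 to 0.076, MPHOSPH9 from -0.044 to 0.17 (-0.0093 without IPI-9119 replicate 3) and RAB3B from -0.26 to 0.046. RAB3B was also 0.062 when corrected for length and GC, with or without the replicate block. Calls of ABCC4 (adjusted p 0.0674) and MET (0.0502) were also lost with no trend and no robust moderation. With the replicate block 27 genes were called lower, since TPD52 (adjusted p 0.0143) and RAB3B (0.0191) passed, and it changed no other call. Deviations of same-numbered libraries correlated at 0.14, 0.063 and 0.0040, so the numbers were not taken to pair the samples. Of the pioneer factors, chaperones and coregulators, the count called higher was 0 after the length and GC correction, with or without the replicate block, and with no trend and no robust moderation, and 0 to 1 when leaving out a library. Of the androgen-repressed genes, the count called lower was 0 with DESeq2 and with no trend and no robust moderation, and 0 to 1 when leaving out a library, and the count called higher was 0 to 1. The causes were not tested. Depth limits MET and HPGD most, and MET was not tested at a mean of at least 50.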

Other observations

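Close relatives of the androgen-regulated genes, listed by family without regard to their values after those of the 35 genes were known, moved in both directions. Of 40 relatives listed 37 were tested, and 11 rose, 19 fell and 7 did not pass (limma, adjusted p under 0.05; background 31.3% higher and 31.4% lower), with a median log2 fold change of -0.13. Among the 27 tested relatives of genes that fell, 16 fell, 9 rose and 2 did not pass. The NDRG family was divided. While NDRG1 fell (-1.36), NDRG2 was at 446 ± 19.3 normalised counts with DMSO against 657 ± 62.5 after IPI-9119 (SD, n = 3) and rose (0.55, or 0.97 when corrected for length and GC), NDRG3 rose (0.34, or 0.14 corrected), and NDRG4 rose from a low level (6.69 ± 3.64 to 40.9 ± 13.8). The MAF family was divided as well. MAF fell (-2.05), MAFF (0.69, or 1.18 corrected) and MAFG (0.31, or 0.48 corrected) rose, and MAFK fell (-0.67, or -0.24 corrected). Some families moved together. ELL (-0.55, or -0.30 corrected) and ELL3 (-0.38, or -0.53 corrected) fell with ELL2. TSC22D2 (-0.98, or -0.83 corrected), TSC22D4 (-0.60, or -0.12 corrected) and TSC22D1 (-0.13, or 0.095 corrected) fell with TSC22D3. When corrected, TSC22D4 and TSC22D1 did not pass the test.

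GUCY1B1, which encodes the beta subunit that pairs with GUCY1A1 in soluble guanylate cyclase, rose with it. It gave 295, 249 and 251 normalised counts with DMSO and 634, 671 and 692 with IPI-9119, with a log2 fold change of 1.33 (SE 0.091; limma, adjusted p = 2.1e-08), beside 0.90 for GUCY1A1. The other alpha subunit, GUCY1A2, fell from 24.8 ± 4.11 to 13.7 ± 3.35 (SD, n = 3; log2 fold change -0.83). The phosphatase PLPP2 rose from 252 ± 19.2 to 855 ± 53.9 (1.76) and PLPP3 rose (0.55), while PLPP1 fell (-0.74). ABCC1, the efflux pump MRP1, fell from 4179 ± 446 to 1120.5 ± 239 (-1.92, and -1.54 after the correction), a larger step than that of ABCC4 (-0.16). Differences between members of a family were not tested.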
